A study of Mus musculus with 18 samples.

Results

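The comparison described here set motor neuron cultures in which mouse Hoxc8 was switched on against cultures in which mouse Hoxc9 was switched on, gene by gene across the transcriptome. Its members were the 6 RNA-seq libraries whose titles named day 4 iHoxc8 or day 4 iHoxc9 neurons, 3 of each, out of 18 libraries in the series. The other 12 were 3 libraries each of day 2 progenitors, day 4 control neurons, iHoxc6 neurons and iHoxc10 neurons, all made from mouse embryonic stem cells differentiated as embryoid bodies. Of 27179 genes in the deposited count tables, 20944 had at least 1 count in a library with an induced Hox gene and were tested.

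Hox genes encode homeodomain transcription factors (TFs) that lie in 4 clusters and give cells their position along the head-to-tail axis, with genes at one end of a cluster used anteriorly and genes at the other end used posteriorly. In the spinal cord, Hoxc8 belongs to the brachial segments that serve the forelimb, where lateral motor column neurons and their muscle-specific pools form, and Hoxc9 belongs to the thoracic segments, where preganglionic and hypaxial motor neurons form. Hoxc9 is known for holding down brachial Hox genes, which sets the border between both levels.

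Both groups carried the same kind of construct. Each line was an Ainv15-derived embryonic stem cell line with a single copy of the Hox coding sequence, tagged at its amino end with Flag, placed at the X-linked Hprt locus under a doxycycline (Dox) responsive promoter. Cells of both lines received 1 µM retinoic acid and 0.5 µM of the Smoothened agonist SAG, then 3 µg/ml Dox for 48 h, and were taken on day 4. Control neurons were the iHoxc6 line without Dox. Each line is 1 genetic line driven by an artificial promoter, so the cultures report forced expression in all cell types present, motor neurons and interneurons alike. The iHoxc8 libraries had a sequencing run to themselves, and the iHoxc9 libraries shared a run with the iHoxc10 libraries, so that the induced gene, the line and the run cannot be told apart in the direct comparison. Levels in the iHoxc10 libraries (same run as iHoxc9) are therefore given beside the main results, as are levels in the control libraries. Control neurons shared a run with the iHoxc6 libraries and with neither line compared. In fold changes against control, the run, the line and the induced gene thus cannot be told apart either. Since these were bulk cultures, fewer cells of a type and less RNA per cell cannot be told apart for any gene below.

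Libraries held 24498630 to 32670273 counts assigned to genes. Levels are given as CPM, each gene's share of the TMM-scaled library total, 3 counts correspond to about 0.0942 CPM in iHoxc8 and 0.108 CPM in iHoxc9, and a fold against a line whose 3 libraries each held 3 counts or fewer is given as a lower bound. Log2 fold changes are iHoxc9 minus iHoxc8 throughout, so "higher" and "lower" refer to iHoxc9. A gene is called when edgeR's adjusted p is under 0.01 and the log2 fold change lies beyond 2 in either direction. For some gene lists, counts at an unadjusted p under 0.05 are also given. The share of all genes at that threshold was not computed, so those counts cannot show whether a list differed from the rest. Log2 profiles of libraries from the same line correlated at 0.993 to 0.999 across genes, and those of different lines at 0.983 to 0.990. One iHoxc8 library, library 2, stood apart: on the log2 scale and relative to its line, its genes with short exon models (up to 2 kb) deviated by 0.34 at the median, those with long models (over 8 kb) by -0.36, and the nuclear RNA Malat1 by -1.85. Calls that were lost without that library are marked where they occur for genes chosen by the naming rule given under the processing. Genes named after their values were seen were not followed across the other fits.

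Between the lines, 407 of 20944 genes were called (1.94% of the genes tested), 227 higher (1.08%) and 180 lower (0.859%). Counts for the gene lists below are to be read beside these shares. A single call made up 2.5% of the sodium and calcium channel genes tested and 3.33% of the cell division genes. It made up 4% of the motor neuron identity genes and 4.17% of the GABA and glycine receptor genes. Such counts say little about the list. All 407 had the 3 libraries of one line above the 3 of the other, an arrangement seen in 25.8% of all genes tested. Most called genes were of low abundance in at least 1 line: 241 averaged 1 CPM or more over the 6 libraries, and only 79 of the 9546 genes that averaged 10 CPM or more were called. Of the called genes 84 lay beyond 4 on the log2 scale, 51 of them higher. With the log2 threshold at 1 in place of 2, 881 genes (4.21%) were called. By adjusted p alone, 1124 genes (5.37%) differed, 617 higher (2.95%) and 507 lower (2.42%). The median log2 fold change over all genes was 0.00. Without iHoxc8 library 2 the count was 355, and 336 of these were shared with the 407. Among the called genes chosen by the naming rule, 22 lost their call in at least 1 other fit: Hoxa3, Igfbpl1, H19, Rtl1, Ddc, Wt1, En1, Foxd3, Tfap2a, Foxa1, Kcnv2, Kcna4, Kcnj5, Kcnj6, Kcnip4, Grin3a, Dkk2, Gdf6, Gdf10, Tgfbr2, Col1a1 and Col8a2. That count leaves out genes named after their values were seen.

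**Figure D1:**
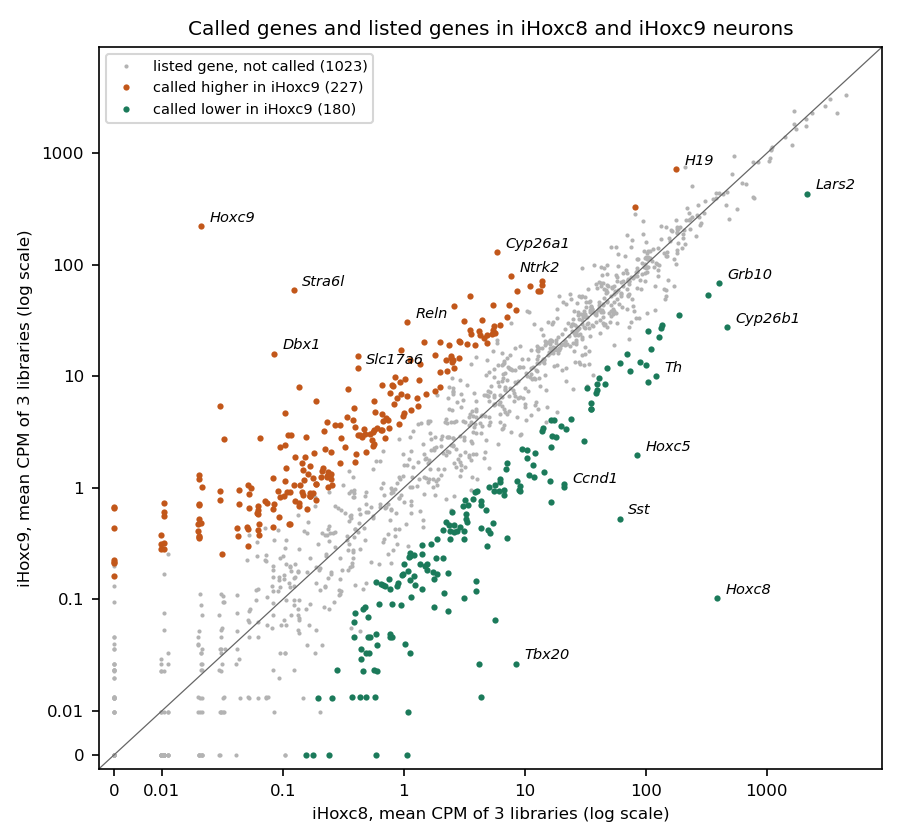
Mean level of each listed gene in iHoxc8 (x axis) and iHoxc9 neurons (y axis), in CPM on logarithmic axes, with the line of equality. The 227 genes called higher lie above the line and the 180 called lower lie below it, and most of them have a mean below 10 CPM in at least 1 of the lines.

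Each line expressed its own gene. Hoxc8 stood at 397, 409.9 and 361 CPM in the 3 iHoxc8 libraries and at 0.156, 0.0294 and 0.119 CPM in the iHoxc9 libraries, a log2 fold change of -11.94 (SE 0.35, adjusted p = 4.44e-15 by edgeR). Hoxc9 stood at 0.0296, 0.0334 and 0 CPM in iHoxc8 and at 224, 236 and 213 CPM in iHoxc9, at least 2380-fold higher (adjusted p = 1.98e-17 by edgeR). Neither gene was seen at more than a trace in the other line, and counts per gene do not separate the transgene from the endogenous copy. Divided by the annotated exon length of each gene (2832 and 2430 bases), the induced genes reached 138 ± 8.98 CPM per kb for Hoxc8 and 92.3 ± 4.62 CPM per kb for Hoxc9 (SD, n = 3 each), a difference of 0.57 on the log2 scale. Without the division it was 0.79. Since the transgenes hold the coding sequence only, these lengths need not be those of the induced transcripts, and the size of the difference is uncertain. All 3 iHoxc8 values were above all 3 iHoxc9 values (two-sided exact permutation p = 0.1, the smallest that 3 against 3 libraries allow).

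The remaining Hox genes differed mostly at the anterior end of the clusters. Paralog groups 1 to 5 hold the Hox genes of hindbrain and cervical levels. Of 15 such genes 9 were called lower and 14 were lower by adjusted p alone, with a median log2 fold change of -2.22 (-2.14 with bounds), while none was higher at an unadjusted p under 0.05 by edgeR and none was called higher by DESeq2. Their summed level was 1332 to 1346 CPM in iHoxc8 and 288 to 339 CPM in iHoxc9, against 1335 to 1601 CPM in iHoxc10. Hoxc5, whose gene lies between Hoxc6 and Hoxc4 in the HoxC cluster, differed most, with 81.5, 100.2 and 75.1 CPM in iHoxc8 and 1.99, 2.38 and 1.51 CPM in iHoxc9 (43.1-fold lower, log2 -5.43, SE 0.19, adjusted p = 5.39e-15 by edgeR). Hoxc5 was at 196 ± 7.29 CPM in control and 59.5 ± 3.90 CPM in iHoxc10 neurons. The most abundant of the group, Hoxb5, fell from 302, 372 and 318 CPM in iHoxc8 to 43.2, 59.0 and 58.0 CPM in iHoxc9 (log2 -2.63, SE 0.21), and stood at 432 ± 130.1 CPM in iHoxc10.

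Across the 4 clusters the lower level was shared. Hoxb4 was 83.8, 92.8 and 92.4 against 12.2, 14.7 and 13.5 CPM (log2 -2.73), and Hoxa4 was 35.9, 38.0 and 32.4 against 3.83, 5.83 and 5.69 CPM (log2 -2.79). Hoxa5 (-2.30), Hoxc4 (-2.24), Hoxa3 (-2.02) and Hoxd1 (-2.46) were also called, and Hoxb3 (-1.56), Hoxb2 (-1.32), Hoxd3 (-1.40), Hoxd4 (-1.29) and Hoxa2 (-0.93) passed the adjusted p but not the fold threshold. Hoxb1 was the exception, at 0.0887, 0.0668 and 0.219 CPM in iHoxc8 and 0, 0.0294 and 0.0398 CPM in iHoxc9 (adjusted p = 0.428 by edgeR). Of the 15, 12 overlap another gene of the annotation, among them Hoxb3 with Hoxb4 and Hoxa3 with Hoxa4 and Hoxa5, so that reads in shared stretches are of uncertain origin. Against control, Hoxb4 fell by 3.32 on the log2 scale in iHoxc9 (adjusted p = 8.7e-13 by edgeR), and its fold change in iHoxc8 was -0.59 (adjusted p = 0.013 by edgeR).

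Central Hox genes split by gene. Among 8 genes of groups 6 to 8, 2 were called higher and 2 lower, the latter being Hoxc8 itself and Hoxb6, a brachial gene of the HoxB cluster. Hoxb6 read 100.0, 128 and 101 CPM in iHoxc8 and 13.2, 21.0 and 18.2 CPM in iHoxc9 (log2 -2.65, SE 0.21). Its neighbors Hoxb7 (12.1, 14.5 and 12.4 against 4.38, 5.65 and 5.10 CPM) and Hoxb8 (149, 155 and 139 against 48.9, 67.7 and 63.4 CPM) were lower by adjusted p only, with log2 fold changes of -1.36 and -1.299. The genes called higher were scarce in both lines: Hoxa7 read 0.0296, 0.200 and 0.0938 against 0.978, 0.883 and 0.876 CPM (log2 3.07), and Hoxd8 read 0.266, 0.200 and 0.156 against 1.45, 1.21 and 1.11 CPM (log2 2.56). Mira, a non-coding RNA gene next to Hoxa7, was higher with it (0.266, 0.0334 and 0.188 against 1.56, 1.18 and 1.23 CPM, log2 2.96), the called member among 4 tested non-coding genes of the clusters. Control neurons held Hoxa7 at 0.822 ± 0.0133 CPM and Mira at 1.04 ± 0.0101 CPM, and both were lower in iHoxc8 than in control (log2 -2.92 and -2.61), while the iHoxc9 fold changes against control were 0.15 and 0.35 (adjusted p = 0.81 and 0.49 by edgeR).

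Hoxc6, the forelimb-level gene next to Hoxc8, stood at 1.57, 0.735 and 1.16 CPM in iHoxc8 and 1.96, 2.33 and 2.15 CPM in iHoxc9 (log2 0.89, adjusted p = 0.0849 by edgeR). Hoxa6 overlapped between the lines, at 1.89, 1.302 and 1.72 against 1.06, 2.09 and 1.31 CPM. Posterior Hox genes other than the induced Hoxc9 were near the detection limit: of 16 genes of groups 9 to 13, 9 were tested, and 6 of these held 3 counts or fewer in every one of the 6 libraries. Hoxb9 was the best detected of them, at 3.64, 2.20 and 2.91 against 1.02, 1.56 and 1.27 CPM (log2 -1.17, adjusted p = 0.036 by edgeR), and Hoxc10 read 0 in all iHoxc8 libraries and 0, 0.353 and 0.0398 CPM in iHoxc9.

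The PBX, MEIS and PREP proteins bind DNA together with Hox proteins. None of 11 genes for this family was called by edgeR or by DESeq2, although 3 were higher and 4 lower at an unadjusted p under 0.05 by edgeR. Pknox2 came nearest, at 52.1, 57.3 and 53.8 against 17.6, 20.7 and 18.9 CPM (log2 -1.51, adjusted p = 5.24e-06 by edgeR). Meis1 was 184, 168 and 191 against 133, 135 and 137 CPM (log2 -0.42), and Meis2 was 188, 148 and 202 against 259.9, 238 and 258 CPM (0.49). Neither overlapped between the lines, an arrangement seen in 25.8% of all genes tested, and their adjusted p values were 0.0285 and 0.0354 by edgeR. Pbx3 averaged 129 ± 12.5 and 99.8 ± 3.61 CPM, and Pbx2, Pbx4 and Meis3 had log2 fold changes of 0.15, -0.07 and 0.09.

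**Figure D2:**
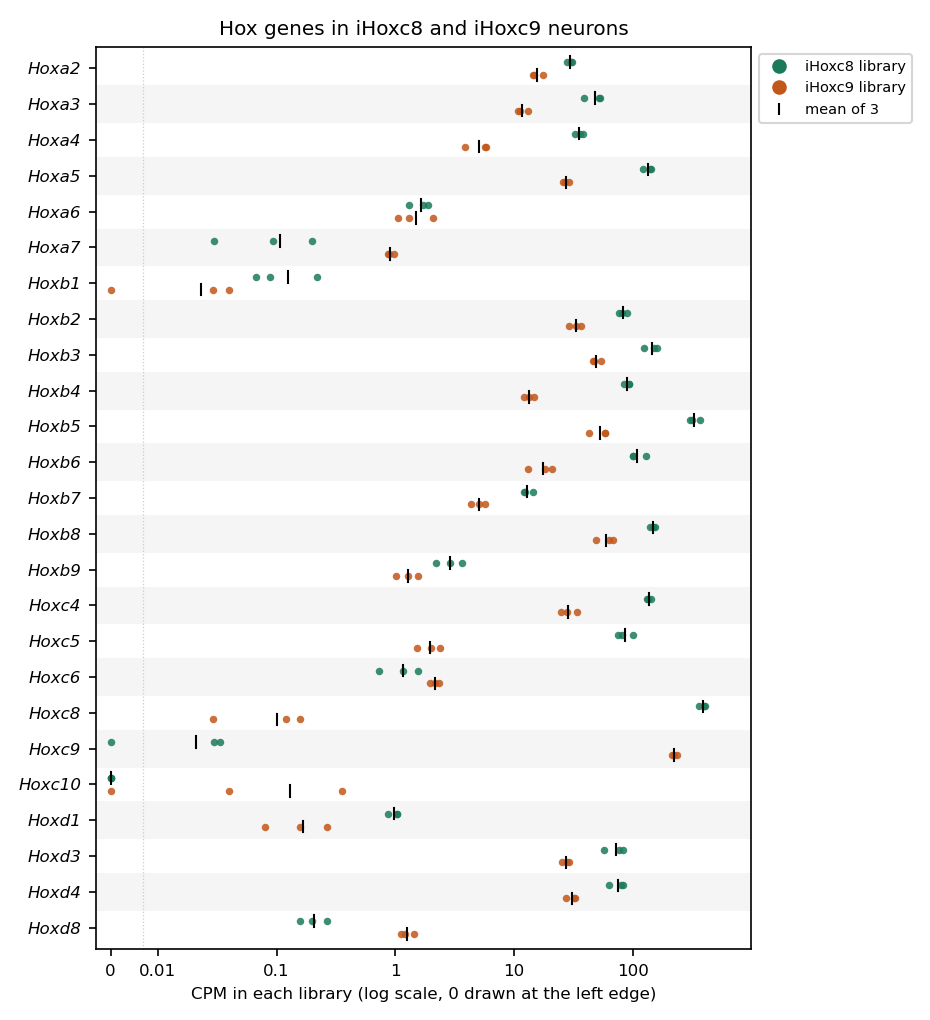
Level of 25 Hox genes (rows) in each iHoxc8 and iHoxc9 library (x axis, CPM, logarithmic, with 0 drawn at the left edge), with a tick at each line's mean of 3 libraries. Genes of groups 1 to 5 sit lower in iHoxc9 than in iHoxc8, as with Hoxb4 at 13.5 ± 1.24 against 89.7 ± 5.08 CPM (SD, n = 3 each), and each induced gene is high in its own line.

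Among genes that averaged at least 1 CPM, the 12 largest called differences in each direction crossed several families. Stra6l, which encodes a receptor for retinol-binding protein, led the higher genes after Hoxc9 itself: it read 0.118, 0.0334 and 0.219 CPM in iHoxc8 and 62.7, 60.8 and 56 CPM in iHoxc9 (462-fold, log2 8.85, SE 0.34, adjusted p = 2.87e-14 by edgeR). It also stood at 24.5 ± 0.442 CPM in iHoxc10 and at 0.0731 ± 0.100 CPM in control. Its locus overlaps that of Igfbpl1, which was called higher too (77.6, 83.2 and 84.8 against 322, 307 and 356 CPM). Dbx1, the homeodomain TF of progenitors that give V0 interneurons, read 0.0592, 0.134 and 0.0625 against 16.3, 14.2 and 17.4 CPM (182-fold, log2 7.50, SE 0.43), with 0.755 ± 0.188 CPM in iHoxc10 and 0.502 ± 0.0211 CPM in control.

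Shox2, a homeodomain TF of some excitatory interneurons, was at least 57.8-fold higher (0.0592, 0 and 0.0313 against 5.98, 5.59 and 4.78 CPM). Other large increases were in Pou4f3 (at least 29.1-fold, a POU TF), Grm5 (57.6-fold, metabotropic glutamate receptor 5), Mybpc1 (43.1-fold, a myosin-binding protein), Itga1 (at least 29.6-fold, a collagen-binding integrin), Adamts19 (31.5-fold, a secreted protease), Reln (28.5-fold) and Slc17a6 (28.1-fold). In iHoxc10, from the same run, Adamts19 reached 3.53 ± 1.01 CPM, with a fold change from iHoxc10 to iHoxc9 of 0.77 on the log2 scale (adjusted p = 0.082 by edgeR), whereas Grm5, Mybpc1 and Itga1 stayed at 0.108 ± 0.0584, 0.138 ± 0.0894 and 0.0239 ± 0.0414 CPM.

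Lower genes were led, after Hoxc8, by Tbx20, a T-box TF of hindbrain visceral motor neurons, at 7.93, 7.11 and 10.5 CPM in iHoxc8 and 0, 0 and 0.0796 CPM in iHoxc9 (at least 78.7-fold lower, adjusted p = 7.00e-11 by edgeR). Fgb, which encodes fibrinogen beta chain, was at least 39.8-fold lower (3.73, 4.61 and 4.60 against 0, 0 and 0.0398 CPM). The gene listed as ccdc198 was at least 38.8-fold lower (4.05, 3.67 and 4.88 against 0.0391, 0 and 0.0398 CPM). Sst, which encodes the peptide somatostatin, was 52.4, 63.7 and 66.3 against 0.391, 0.441 and 0.756 CPM, a 115-fold difference (log2 -6.85, SE 0.27, adjusted p = 2.87e-14 by edgeR). Its level in control neurons was 195 ± 26.9 CPM and in iHoxc10 2.48 ± 0.257 CPM, and it was lower than control in both iHoxc8 (log2 -1.68) and iHoxc9 (-8.53). The rest were Tacr3 (76.5-fold lower, the neurokinin B receptor), Hoxc5, Nckap1l (31.5-fold, an actin regulator), Lrat (30.1-fold, which esterifies retinol), Cldn3 (27.0-fold, a tight junction protein), Cdk15 (26.8-fold, a kinase) and Runx1 (21.8-fold). Each of the 11 genes other than Hoxc8 had a lower mean in iHoxc10 than in iHoxc8, as with Lrat (2.17 ± 1.25 against 3.97 ± 1.02 CPM) and Tacr3 (0.152 ± 0.0790 against 5.70 ± 0.845 CPM). The 11 were picked for high levels in iHoxc8, which favors a lower mean in any other group. How often other genes showed this was not counted, and no conclusion is drawn from it.

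**Figure D3:**
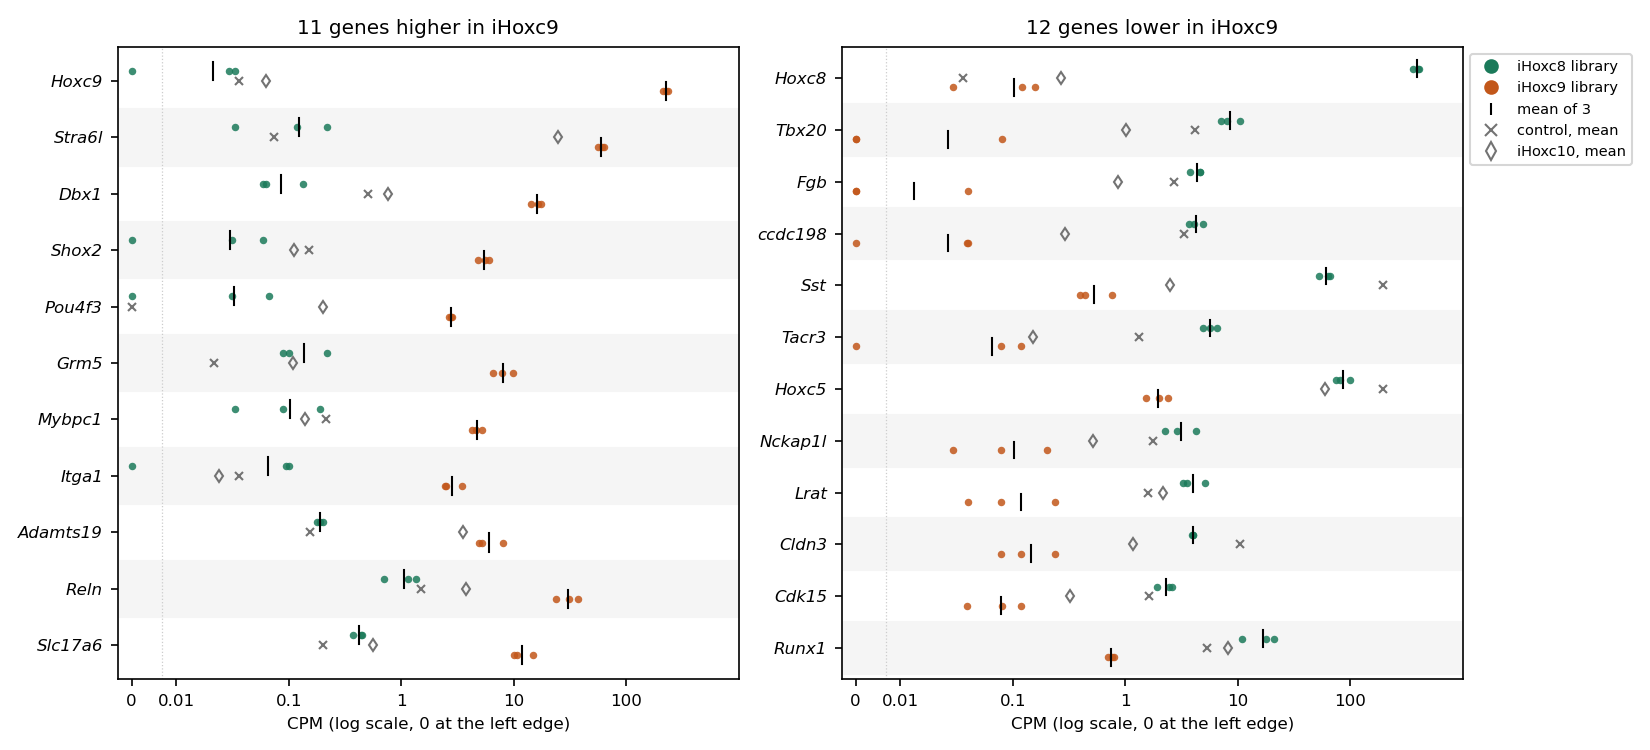
Levels of 11 genes (rows) of the largest called increases and 12 of the largest called decreases among genes averaging at least 1 CPM (x axis, CPM, logarithmic, with 0 drawn at the left edge). Points are the 3 libraries of each line, ticks their mean, crosses the control mean and diamonds the iHoxc10 mean. For Stra6l, iHoxc10 (24.5 CPM) lies near iHoxc9, and for Sst control (195 CPM) lies above both lines.

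To show the sequence upstream of 4 of these genes, the 250 bases before the first start that RefSeq lists for each (GRCm38.p6) are printed 5′ to 3′ on the gene's strand, with each match to TTTAT, core letters of the sites that posterior Hox proteins prefer, or to its reverse complement ATAAA in capitals. Letters ATAAA also form part of TATA boxes (TATAAA), as at the match 44 bases before the Dbx1 start. Stra6l (chr4:45848566-45848815, plus strand) and Dbx1 (chr7:49636836-49637085, minus strand) stand for the genes that were higher, and Sst (chr16:23890845-23891094, minus strand) and Hoxb4 (chr11:96318017-96318266, plus strand) for those that were lower.
Stra6l: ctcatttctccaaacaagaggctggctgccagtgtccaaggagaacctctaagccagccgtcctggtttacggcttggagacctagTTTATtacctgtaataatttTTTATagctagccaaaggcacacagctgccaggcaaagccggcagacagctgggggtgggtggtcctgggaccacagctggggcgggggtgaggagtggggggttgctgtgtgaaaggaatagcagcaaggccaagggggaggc
Dbx1: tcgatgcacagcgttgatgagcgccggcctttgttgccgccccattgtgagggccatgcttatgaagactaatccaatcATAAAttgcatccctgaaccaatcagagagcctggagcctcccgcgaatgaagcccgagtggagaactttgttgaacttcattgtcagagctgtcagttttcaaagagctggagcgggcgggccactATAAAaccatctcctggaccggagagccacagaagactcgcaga
Sst: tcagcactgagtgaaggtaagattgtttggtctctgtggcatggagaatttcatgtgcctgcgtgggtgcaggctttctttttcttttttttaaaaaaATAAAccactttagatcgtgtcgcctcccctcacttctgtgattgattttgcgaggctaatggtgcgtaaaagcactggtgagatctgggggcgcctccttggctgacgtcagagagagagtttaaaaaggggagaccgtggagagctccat
Hoxb4: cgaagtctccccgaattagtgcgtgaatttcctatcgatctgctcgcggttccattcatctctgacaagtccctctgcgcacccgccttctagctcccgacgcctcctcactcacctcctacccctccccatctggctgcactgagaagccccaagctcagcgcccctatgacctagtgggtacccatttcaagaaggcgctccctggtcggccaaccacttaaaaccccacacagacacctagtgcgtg
The Stra6l window has 2 matches, the Dbx1 window 2, the Sst window 1 and the Hoxb4 window 0. Over all 14824 tested genes with such a window, 27.5% held at least 1 match on either strand, against 32.7% (54 of 165) of the genes called higher and 30.6% (38 of 124) of those called lower. The general homeodomain letters TAAT, on either strand, were in 43.7% of all windows, 43.0% of the higher and 53.2% of the lower genes. These matches are a description of letters only.

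Motor neuron identity and cholinergic genes moved both ways, mostly within the fold threshold. Of 25 such genes 6 were higher and 2 lower by adjusted p alone, and 1 was called, Prph (peripherin, a neurofilament of motor axons), at 62.9, 71.1 and 49.4 against 11.8, 15.8 and 12.3 CPM (log2 -2.20, SE 0.21, adjusted p = 9.57e-08 by edgeR), and the list median was -0.13. Prph was 144 ± 28.0 CPM in control. Isl1, a LIM homeodomain TF of motor neurons, read 157, 136 and 152 against 59.3, 46.6 and 51.8 CPM (log2 -1.50, adjusted p = 0.000315 by edgeR), and its relative Isl2 differed the other way, at 22.8, 21.3 and 18.6 against 48.7, 42.1 and 48.4 CPM (log2 1.15, adjusted p = 0.000938 by edgeR). Both passed the adjusted p and neither passed the fold threshold. Mnx1 (43.5 ± 2.98 against 38.2 ± 2.22 CPM), Lhx3 (39.1 ± 3.00 against 30.7 ± 4.57 CPM) and Chat (18.4 ± 2.37 against 12.7 ± 1.67 CPM), the acetylcholine-synthesizing enzyme, had log2 fold changes of -0.19, -0.35 and -0.53 and passed neither.

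Genes listed here for the limb columns and pools were called in both directions. Of 21 tested, 4 were called higher and 2 lower, with a median of -0.60, and without iHoxc8 library 2 the counts were 4 and 3. By adjusted p alone 6 were higher and 8 lower, and at an unadjusted p under 0.05 by edgeR 6 were higher and 12 lower. Runx1, a pool TF, was lower (17.7, 11 and 20.9 against 0.704, 0.795 and 0.756 CPM, log2 -4.45), as was the pool cadherin Cdh7 (2.63, 2.44 and 2.10 against 0.391, 0.383 and 0.279 CPM, log2 -2.74). Higher were Reln, the secreted reelin that guides neuron position (1.15, 0.701 and 1.34 against 31.0, 37.1 and 23.7 CPM, log2 4.83), the artemin receptor gene Gfra3 (3.33), Cdh8 (2.61) and Lhx5 (2.42). The lateral motor column genes Foxp1, a Hox co-factor, and Aldh1a2, which makes retinoic acid, were lower by adjusted p only: Foxp1 was 206, 136 and 192 against 111, 93.8 and 101 CPM (log2 -0.80, adjusted p = 0.0036 by edgeR), and Aldh1a2 was 73.5, 93.9 and 52.4 against 19.4, 27.0 and 18.5 CPM (log2 -1.76). Aldh1a2 was above control in iHoxc8 (log2 1.33, adjusted p = 0.00061 by edgeR), and its fold change against control in iHoxc9 was -0.42 (adjusted p = 0.15 by edgeR), with 29.1 ± 5.29 CPM in control. Lhx1, of laterally settling limb motor neurons and of interneurons, was 16.6, 13.5 and 15.1 against 3.76, 4.06 and 3.78 CPM (log2 -1.96), just short of the fold threshold, and it was called without iHoxc8 library 2 (log2 -2.05).

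Of 13 genes tied to thoracic and axial columns, 2 were called. Fst, the activin antagonist follistatin, was higher at low levels (0.0296, 0.0334 and 0.125 against 0.743, 0.853 and 0.478 CPM, log2 3.39), and Smad9, a BMP signal transducer, was lower (1.27, 1.10 and 1.00 against 0.196, 0.294 and 0.239 CPM, log2 -2.17). The list median was 0.05.

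Of 39 interneuron TFs tested, 10 were called higher and 1 lower (28.2%, against 1.94% of all genes), with a median of 0.78 (0.53 with bounds). Without iHoxc8 library 2 the counts were 7 and 2. Their summed level went the other way, at 351 to 399 CPM in iHoxc8 and 257 to 296 CPM in iHoxc9. Only 16 of the 39 averaged 1 CPM or more. The median without 1 library ran from 0.27 (without iHoxc9 library 3) to 1.15 (without iHoxc8 library 1). Sim1, the TF of V3 interneurons, was 1.12, 0.601 and 1.13 against 19.6, 16.4 and 15.2 CPM (log2 4.15), with 5.31 ± 2.13 CPM in iHoxc10. Several others were near the detection limit in iHoxc8. Ptf1a, which specifies inhibitory dorsal neurons, was at least 7.76-fold higher (0, 0 and 0.0313 against 0.430, 1.32 and 0.438 CPM). Sox14, a SOX family TF, was at least 10.9-fold higher (0, 0.0334 and 0.0313 against 0.743, 1.62 and 0.716 CPM). Pou4f3 read 0, 0.0668 and 0.0313 against 2.78, 2.796 and 2.67 CPM. Tlx3, a selector of excitatory dorsal neurons, was 1.33, 1.47 and 1.06 against 7.00, 6.03 and 6.17 CPM (log2 2.31), and Pax2, of inhibitory neurons, 0.680, 0.167 and 0.344 against 1.53, 2.15 and 1.39 CPM (log2 2.07). Pax2 lay close to the fold threshold, its lowest iHoxc8 value was that of library 2, and its call without that library is not given here. The gene called lower was Wt1, of dI6 interneurons (0.769, 0.434 and 0.907 against 0.117, 0.235 and 0.0398 CPM, log2 -2.30), a call lost without either iHoxc8 library 1 or 3, or iHoxc9 library 1 or 3. En1 of V1 interneurons and Foxd3, also used in V1 neurons and neural crest, were called higher with all libraries (log2 2.02 and at least 4.56-fold) but not without iHoxc8 library 2, nor without some of the other libraries.

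Of 25 progenitor genes 6 were higher and 2 lower by adjusted p alone, and within the fold threshold except for a pair: Dbx1 was called higher and Neurog1, a proneural TF, lower (7.45, 6.61 and 7.13 against 1.33, 1.21 and 1.91 CPM, log2 -2.26). Of 30 cell division genes 1 was called, Ccnd1 (cyclin D1, which drives entry into the cycle), at 18.6, 20.3 and 24.3 against 0.665, 1.32 and 1.07 CPM (log2 -4.34, SE 0.29, adjusted p = 5.18e-10 by edgeR). Ccnd1 overlaps the gene LTO1, and it was 26.0 ± 11.8 CPM in control and 16.9 ± 3.13 CPM in iHoxc10. Mki67, a marker of dividing cells, overlapped between the lines, at 119, 68.2 and 152 against 108, 103 and 114 CPM. No gene of the 23 temporal identity TFs was called by edgeR or DESeq2, but 13 were higher and 2 lower at an unadjusted p under 0.05 by edgeR, with a median of 0.63 (0.32 without iHoxc8 library 2), and Pou3f1 had the smallest adjusted p (24.6, 24.4 and 25.6 against 7.67, 8.27 and 7.13 CPM, log2 -1.69). No pan-neuronal gene of 20 was called by either tool, with 2 higher and 5 lower at an unadjusted p under 0.05 by edgeR. Nefh, the heavy neurofilament, had the smallest adjusted p (20.6, 26.1 and 19.4 against 8.84, 9.09 and 9.31 CPM, log2 -1.28), while Tubb3, neuronal tubulin, overlapped at 2861, 4199 and 2925 against 2753, 2921 and 3584 CPM.

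**Figure D4:**
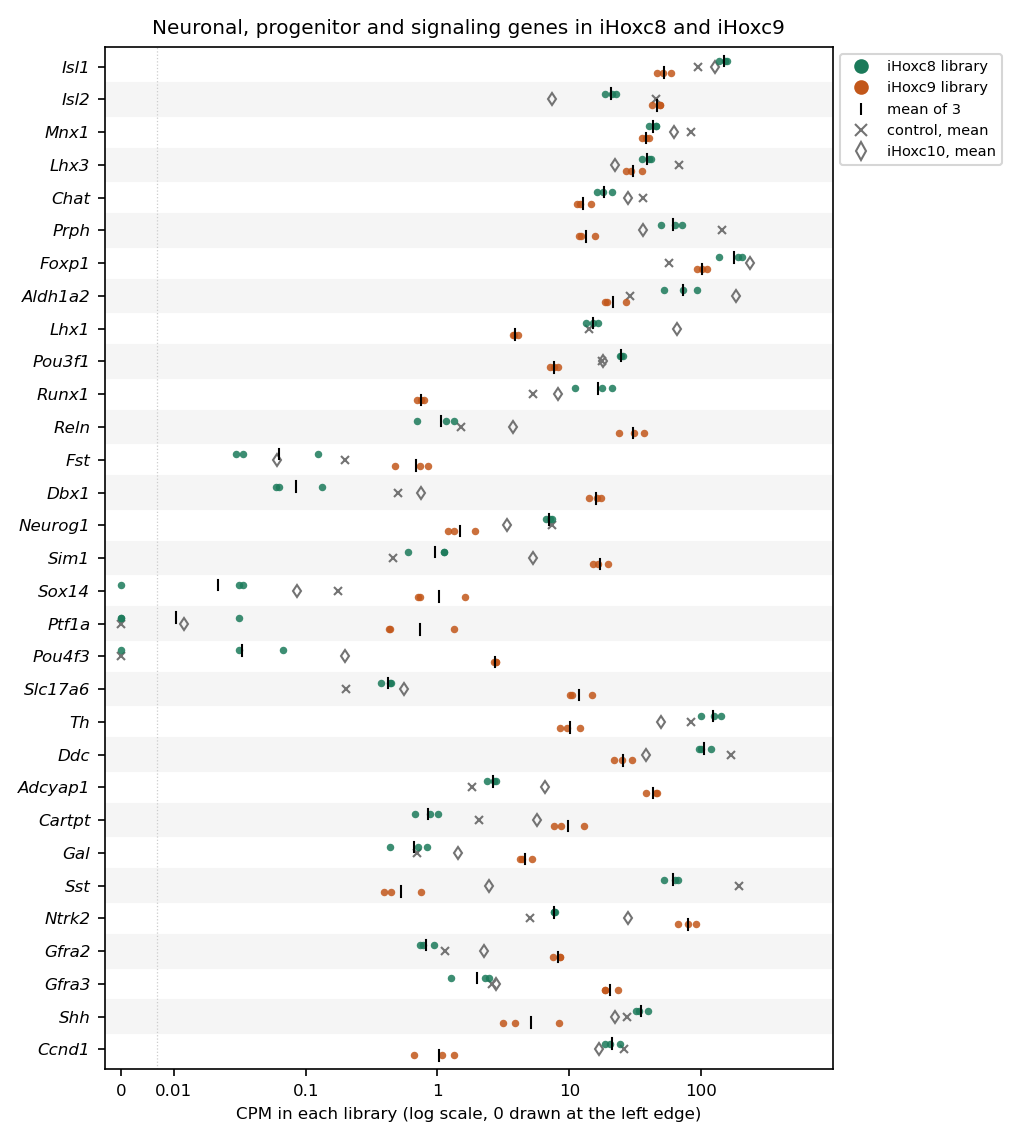
Levels of 31 motor neuron, interneuron, progenitor, transmitter, peptide and signaling genes (rows; x axis, CPM, logarithmic, with 0 drawn at the left edge), with the 3 libraries of each line as points, their mean as a tick, the control mean as a cross and the iHoxc10 mean as a diamond. Isl1 and Isl2 part in opposite directions (148 ± 11.2 against 52.6 ± 6.43 CPM and 20.9 ± 2.13 against 46.4 ± 3.75 CPM), and Sim1 and Dbx1 stand higher in iHoxc9.

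Transmitter and peptide genes included some of the most abundant differences. Of 21 genes for transmitter synthesis and vesicular transport, 1 was called higher and 2 lower. Slc17a6, the vesicular glutamate transporter VGLUT2 a mark of glutamatergic neurons, was 0.444, 0.434 and 0.375 against 10.6, 14.9 and 10.1 CPM (log2 4.81, SE 0.32, adjusted p = 5.89e-10 by edgeR), with 0.560 ± 0.141 CPM in iHoxc10. Th, tyrosine hydroxylase, the first step of catecholamine synthesis, was 142, 126 and 99.1 against 8.57, 9.57 and 12.1 CPM (log2 -3.60, SE 0.24, adjusted p = 5.18e-10 by edgeR), with 83.3 ± 20.6 CPM in control and 49.97 ± 8.99 CPM in iHoxc10. Ddc, the next enzyme of that route, was 100.2, 118 and 96.5 against 21.8, 25.3 and 29.8 CPM (log2 -2.03), and its call was lost without iHoxc8 library 2 (-1.95) or iHoxc9 library 1.

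Of 28 neuropeptide precursor genes 3 were called higher and 1, Sst, lower (14.3% called, against 1.94% of all genes). Adcyap1, which encodes PACAP, read 2.40, 2.77 and 2.69 against 46.0, 37.9 and 45.3 CPM (log2 4.04, SE 0.35), Cartpt 0.680, 1.00 and 0.876 against 8.68, 13 and 7.72 CPM (log2 3.52), and Gal (galanin) 0.710, 0.835 and 0.438 against 4.26, 5.18 and 4.38 CPM (log2 2.799). Peptide receptors leaned the other way, with 1 of 31 called higher and 5 lower. Calcrl, the shared receptor subunit for CGRP and adrenomedullin, was higher (1.27, 0.835 and 1.25 against 17.4, 12.6 and 11.8 CPM, log2 3.63). Lower were the tachykinin receptors Tacr3 (6.57, 5.64 and 4.88 against 0.0782, 0.118 and 0 CPM) and Tacr1 (10.03, 13.2 and 9.60 against 1.41, 1.82 and 0.716 CPM), the somatostatin receptor Sstr1 (1.80, 1.87 and 1.63 against 0, 0.177 and 0.0796 CPM), the cholecystokinin receptor Cckar (log2 -3.08) and the neuropeptide Y receptor Npy2r (log2 -3.04). Sst and Sstr1, a peptide and one of its receptors, were thus both lower, but Sstr1 was at 4.68 ± 2.28 CPM in iHoxc10, where Sst was low.

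Retinoid genes changed in both directions at high levels. Cyp26a1 and Cyp26b1 encode related enzymes that break down retinoic acid. Cyp26a1 read 6.27, 5.81 and 5.57 against 111, 148 and 134 CPM (22.3-fold higher, log2 4.48, SE 0.23, adjusted p = 1.24e-11 by edgeR), and Cyp26b1 read 517, 429 and 465 against 19.7, 29.3 and 33.9 CPM (17.0-fold lower, log2 -4.09, SE 0.29, adjusted p = 1.01e-09 by edgeR). The libraries of the lines thus carried opposite members of this pair as the more abundant gene. In control neurons Cyp26a1 was 5.87 ± 1.64 CPM and Cyp26b1 232 ± 97.7 CPM, and in iHoxc10 they were 30.3 ± 10.5 and 278 ± 79.6 CPM. The same split held for uptake and storage, with Stra6l higher and Lrat lower (5.15, 3.27 and 3.50 against 0.0782, 0.235 and 0.0398 CPM, log2 -4.91). These were the 4 called genes of 22 tested, 2 in each direction, with a median of -0.25.

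Among neurotrophic receptor genes, Ntrk2, the receptor TrkB for BDNF, was 7.81, 7.68 and 7.66 against 79.9, 91.5 and 66.7 CPM (10.3-fold higher, log2 3.36, SE 0.22, adjusted p = 3.20e-10 by edgeR). The co-receptors of the GDNF family Gfra2 (0.946, 0.735 and 0.782 against 7.55, 8.51 and 8.52 CPM) and Gfra3 (2.45, 1.27 and 2.28 against 18.8, 18.6 and 23.3 CPM) were higher by 3.31 and 3.33 on the log2 scale. Of 14 genes in the list, 3 were called higher and 1 lower, 8 and 1 by adjusted p alone, with a median of 0.71. Ntrk2 stood at 27.8 ± 5.54 CPM in iHoxc10, between the levels of the lines compared.

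Signaling genes were called in each of 4 pathways, in 3.13% (FGF) to 9.52% (BMP and TGF-beta) of the genes tested, against 1.94% of all genes. Shh, the morphogen of the floor plate, was 31.8, 39.7 and 34.0 against 3.87, 8.36 and 3.14 CPM (log2 -2.76, SE 0.43, adjusted p = 0.000105 by edgeR), and Hhip, which binds Hedgehog ligands, was 3.40, 2.44 and 4.10 against 20.6, 23.3 and 15.1 CPM (log2 2.57, SE 0.27). They were the 2 called of 33 Notch and Hedgehog pathway genes. Of 32 FGF pathway genes Fgf10, a ligand of limb and lung budding, was called, 0.148, 0.200 and 0.344 against 4.19, 3.38 and 4.14 CPM (log2 4.06). Of 49 Wnt pathway genes 3 were called, all higher: the R-spondin Rspo2 (log2 3.32), its receptor Lgr5 (3.14) and the inhibitor Dkk2 (2.14). Of 63 BMP and TGF-beta pathway genes, 3 were called each way. Besides Fst and Smad9 these were the ligands Gdf6 (log2 2.99) and Gdf10 (at least 3.40-fold higher), Bmp6 (2.28, 3.97 and 3.53 against 0.391, 0.736 and 0.438 CPM, log2 -2.60) and the receptor Tgfbr2 (-2.19), and without iHoxc8 library 2 the calls of Gdf6, Gdf10 and Tgfbr2 were lost, as were those of Gdf6 and Gdf10 without iHoxc9 library 2.

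Potassium channel genes were called in both directions, 9 of 88 higher and 6 lower (17.0%, against 1.94% of all genes). Their median was 0.06 (0.00 with bounds), and 5 were called higher and 7 lower without iHoxc8 library 2. Kcne4, an accessory subunit, was absent from the counts of all 3 iHoxc8 libraries and read 0.548, 1.00 and 0.438 CPM in iHoxc9 (at least 7.03-fold higher). Kcns3, a modifier of delayed rectifier channels, was 0, 0.100 and 0.219 against 1.29, 2.03 and 1.23 CPM (log2 3.81), and Kcnip2, which binds A-type channels, was the most abundant of those higher, at 1.15, 1.20 and 0.688 against 9.66, 8.89 and 9.83 CPM (log2 3.22). Kcnv2 (at least 2.30-fold) and Kcna4 (at least 3.75-fold) were called with all libraries but not by DESeq2. The call of Kcnv2 was lost without any 1 of the 6 libraries, and that of Kcna4 without any 1 of the iHoxc8 libraries or iHoxc9 library 2. Lower were the inward rectifiers Kcnj5 (at least 5.50-fold) and Kcnj6 (at least 4.86-fold), the leak channel Kcnk9 (1.42, 0.968 and 1.31 against 0.156, 0.0883 and 0.159 CPM, log2 -3.20) and Kcnip4 (log2 -2.71). Among 40 voltage-gated sodium and calcium channel genes 1 was called, Scn7a (0.177, 0.100 and 0.188 against 3.21, 3.24 and 2.15 CPM, log2 4.16), and 1 higher and 1 lower were called without iHoxc8 library 2.

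All 3 called of 25 glutamate receptor genes were higher, and without iHoxc8 library 2 or iHoxc9 library 1 another was called lower. Grm5 read 0.0887, 0.100 and 0.219 against 9.86, 6.50 and 7.88 CPM (log2 5.85, SE 0.42, adjusted p = 1.73e-09 by edgeR), Grin2c, an NMDA receptor subunit, 1.92, 1.14 and 0.938 against 8.14, 11.6 and 8.24 CPM (log2 2.799), and Grin3a 0.177, 0.134 and 0.188 against 0.587, 1.27 and 0.677 CPM (log2 2.33). By adjusted p alone 6 were higher and 4 lower, and the list median was -0.24 (-0.11 with bounds). Of 24 GABA and glycine receptor genes 1 was called, Gabra4, at least 7.66-fold higher (0, 0.0668 and 0.0625 against 0.782, 0.706 and 0.677 CPM), and it overlaps Gabrb1.

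Guidance and adhesion genes were called mostly among the cadherins. None of 40 Eph, ephrin, Slit, Robo, netrin and Unc5 genes was called by edgeR or DESeq2, though 16 were higher and 5 lower at an unadjusted p under 0.05 by edgeR and 2 were called higher without iHoxc8 library 1, 1 without iHoxc9 library 1 or 3. Epha7, an ephrin receptor, was nearest the threshold (12.1, 8.71 and 10.6 against 39.7, 41.9 and 34.8 CPM, log2 1.89). Sema3c, a secreted semaphorin, was the called member of 31 semaphorin, plexin and neuropilin genes (15.5, 12.2 and 14.3 against 78.5, 64.8 and 70.9 CPM, log2 2.35, SE 0.21). Of 34 cadherins 5 were called (14.7%, against 1.94% of all genes tested). Higher were Cdh8 (2.63, 2.64 and 2.16 against 14.6, 15.5 and 15.2 CPM), Cdh23 (log2 2.78) and Cdh9 (2.73), and lower were Cdh7 and the epithelial cadherin Cdh1 (4.29, 4.81 and 5.57 against 0.313, 0.383 and 0.199 CPM, log2 -3.98). No clustered protocadherin of 58 was called by either tool, with 4 higher and 6 lower at an unadjusted p under 0.05 by edgeR, and all 58 overlap another gene. Pcdha2 had the smallest adjusted p (log2 -1.31).

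Matrix genes moved both ways. Of 83 integrin, laminin and collagen genes, 3 were called higher and 4 lower (8.43%, against 1.94% of all genes), 2 and 4 without iHoxc8 library 2. The higher ones were Itga1 (0, 0.100 and 0.0938 against 3.48, 2.47 and 2.43 CPM), Col12a1 (6.30, 2.27 and 4.10 against 25.8, 32.8 and 18 CPM, log2 2.59) and Col1a1 (log2 2.98, a call lost without that library). Itga2, which like Itga1 encodes a collagen-binding integrin chain and is its neighbor on chromosome 13, was lower (2.13, 1.20 and 2.35 against 0.156, 0.265 and 0.0796 CPM, log2 -3.41), as were Col8a2 (-2.49), Col26a1 (38.9, 46.5 and 30.3 against 6.06, 7.98 and 7.09 CPM, log2 -2.45) and Lamb3 (-2.43).

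By abundance, the called genes with the highest levels were a mixed set. H19, an imprinted non-coding RNA, was 199, 181 and 156 against 594, 1061 and 517 CPM (log2 2.02, SE 0.42, adjusted p = 0.00201 by edgeR), but control libraries averaged 982 ± 511 CPM and the call was lost without iHoxc8 library 2 or 3 or iHoxc9 library 2. Lars2, which encodes mitochondrial leucyl-tRNA synthetase, was 2309.8, 2436 and 1776 against 591, 394 and 324 CPM (log2 -2.32, SE 0.40), with 504 ± 252 CPM in control and 301 ± 11.6 CPM in iHoxc10, so that the iHoxc8 libraries were the high ones. Igfbpl1 averaged 81.9 ± 3.77 against 328 ± 25.2 CPM (log2 2.00). Grb10, an imprinted adaptor of insulin signaling, was 369.6, 394 and 438 against 52.1, 94.9 and 60.4 CPM (log2 -2.53), with 24.9 ± 7.35 CPM in control, above which both lines lay (log2 4.01 in iHoxc8 and 1.48 in iHoxc9). Of 48 imprinted genes 3 were called higher (H19, Dlk1 at log2 2.18 and Rtl1 at 2.13) and 3 lower (Grb10, Ddc and Dcn at -2.83), 2 and 3 without iHoxc8 library 2, and 1 higher without iHoxc8 library 3. Ddc and Grb10 are neighbors on chromosome 11, and Rtl1 overlaps Meg3 and several microRNA genes.

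Genes around the transgene site differed too. Hprt itself was 28.9, 33.3 and 35.3 against 8.02, 8.01 and 8.76 CPM (log2 -1.98, adjusted p = 1.73e-08 by edgeR), against 1.61 ± 0.541 CPM in control and 18.1 ± 1.35 CPM in iHoxc10. Of 16 tested genes of the region 1 was called, Gm364 (3.84, 4.17 and 4.10 against 1.10, 0.912 and 0.796 CPM, log2 -2.11), and 4 were lower by adjusted p alone; 2 were called without iHoxc8 library 1, iHoxc9 library 1 or iHoxc9 library 3. Of 18 immediate early genes 1 was called, Nr4a3 (1.24, 0.534 and 1.44 against 6.42, 7.03 and 6.69 CPM, log2 2.64). Of 14 CDX and trunk axial genes Cyp26a1 was the called member.

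Markers of other cell types moved with the comparison, and their part in the results above was not tested. Of 12 genes listed as floor plate genes 5 were called lower and 1, Sim1, higher, with a median of -1.42. Sim1, described above as the TF of V3 interneurons, is part of this list, its median and its sums. Corin was at least 9.96-fold lower, Ferd3l was -2.90 and Foxa1 -2.09 on the log2 scale, and Shh is given above. The defining Foxa2 was present in both lines, at 27.5, 44.5 and 30.5 against 13.8, 25.0 and 11.7 CPM (log2 -1.02, adjusted p = 0.103 by edgeR). Summed over the 12 listed genes, transcripts were 846 to 928 CPM in iHoxc8 and 395 to 577 CPM in iHoxc9, 685 to 1122 CPM in iHoxc10 and at least 533 and at most 711 CPM in control.

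Of 18 neural crest and glial genes 5 were called lower and 1 higher, with a median of -1.60 (-0.16 with bounds, -0.77 without iHoxc8 library 3), and 4 lower without iHoxc8 library 2. The gene called higher was Foxd3, whose call was lost without any 1 of the iHoxc8 libraries or iHoxc9 library 2. Phox2a, a TF of visceral motor and autonomic neurons, was 18.7, 27.6 and 20.1 against 2.43, 5.12 and 2.55 CPM (log2 -2.70). Tfap2a was at least 4.11-fold lower and Aldh1l1, an astroglial gene, lower by 2.28 (log2 -2.28), while Sox10, the defining crest TF, was scarce in both lines (0.858, 0.768 and 0.407 against 0.0782, 0.206 and 0.119 CPM, log2 -2.24). The sums were 156 to 161 and 110.2 to 112 CPM. Forebrain, midbrain and hindbrain genes summed to 139 to 155 and 49.0 to 54.9 CPM, and of 15 tested 3 were called lower, among them Tbx20 and Tbx2 (12, 12.4 and 11.1 against 0.978, 1.62 and 1.15 CPM, log2 -3.22), and En1 was called higher, a call lost with the 15 day 4 libraries alone and when any library of the comparison but iHoxc8 library 1 was left out. For each of Tbx20, Tbx2 and Phox2a the 3 iHoxc9 libraries lay below every iHoxc8 library. All 407 called genes were separated in this way, in 1 direction or the other, as were 25.8% of all genes tested.

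Of 24 mesoderm genes 2 were called higher and 3 lower (20.8%, against 1.94% of all genes), 1 and 3 without iHoxc8 library 2 (1 higher also without iHoxc9 library 2). Meox1 was 0.148, 0.301 and 0.0938 against 1.84, 2.41 and 1.87 CPM (log2 3.49), and Twist1 and Acta2 were lower (at least 5.41-fold, and log2 -2.77). Foxa1 was the called gene of 18 endoderm genes (5.56%), and not without iHoxc9 library 3. Mitochondrial (13 genes), stress (23), pluripotency (11), blood and vessel (18), and Xist and Y chromosome genes (10) held no call by edgeR or DESeq2, and at an unadjusted p under 0.05 by edgeR their counts, higher and lower, were 0 and 3, 5 and 2, 0 and 1, 1 and 2, and 2 and 0. Mitochondrial transcripts summed to 29981 to 30599 CPM in iHoxc8 and 26622 to 28116 CPM in iHoxc9, and their list included ND3 (log2 -0.84, adjusted p = 0.0737 by edgeR). Blood and vessel genes summed to at most 4.75 CPM in any of the 6 libraries.

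**Figure D5:**
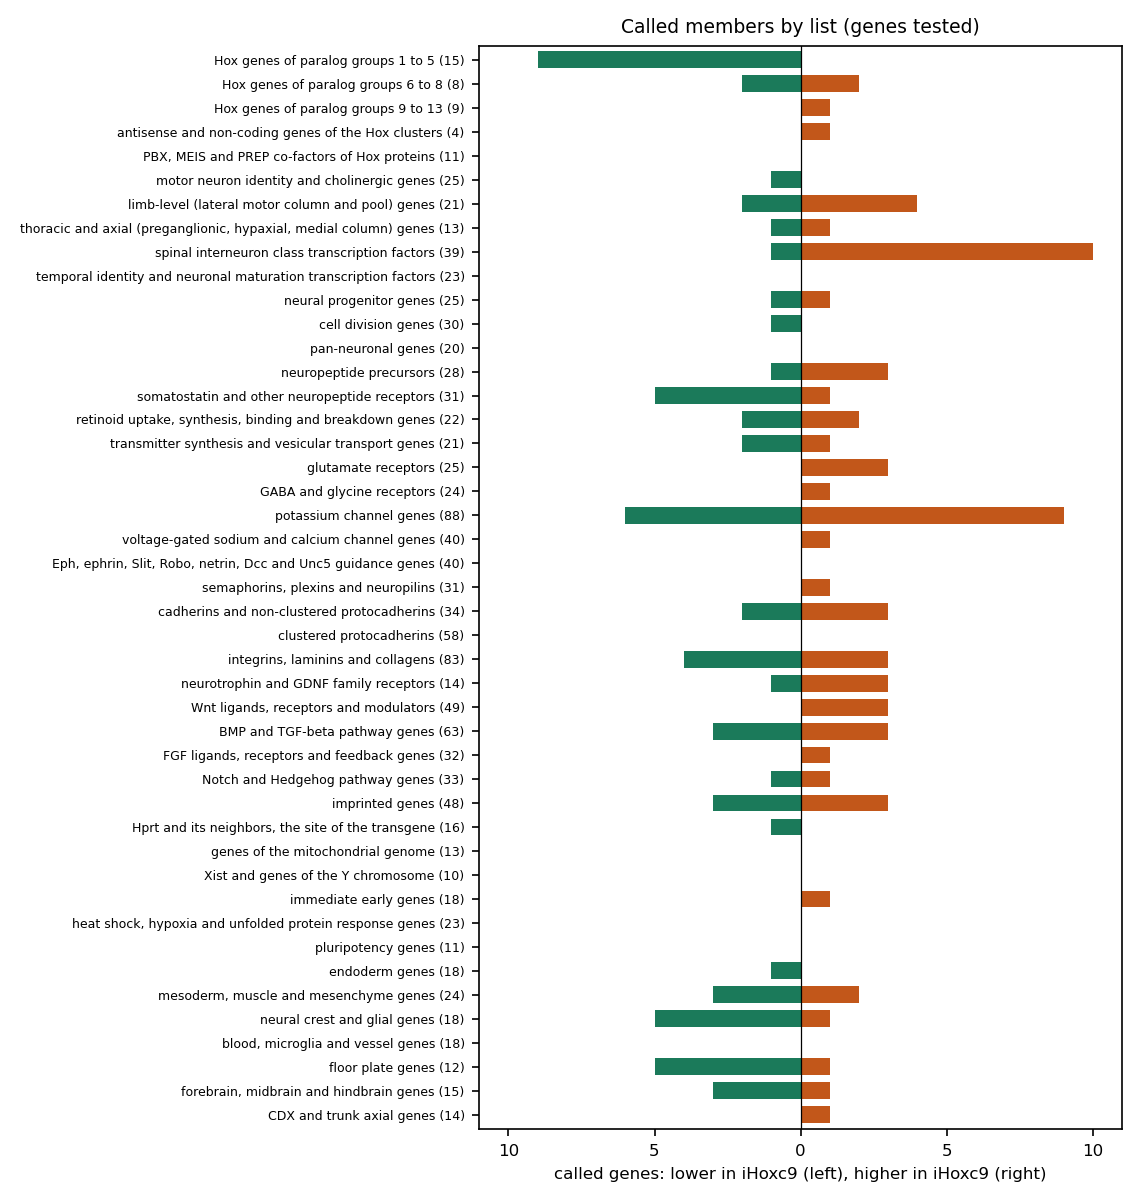
Number of called members of each gene list, with genes lower in iHoxc9 as bars to the left and genes higher as bars to the right (x axis, genes) and the number tested in brackets. Hox genes of groups 1 to 5 (9 lower of 15), interneuron TFs (10 higher and 1 lower of 39) and potassium channels (9 higher and 6 lower of 88) hold the longest bars.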

How the data were processed

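The deposited files hold raw read counts per gene, 1 table for each group of 3 libraries, made by the authors from 75-base single-end reads of poly(A) RNA with STAR 2.7.0c (mm10) and featureCounts on RefSeq genes merged by Entrez identifier; the strand setting of the counting is not given in the sources used here, and genes that overlap another are therefore uncertain (175 of the 407 called). Of 27179 identifiers, 25275 matched a symbol. Genes without a count in any library with an induced Hox gene were left out, and 20944 were tested with edgeR 4.0.16 in R 4.3.3 (quasi-likelihood test, TMM factors, 1 term for the group over all 18 libraries, Benjamini-Hochberg adjustment). The thresholds (adjusted p under 0.01, log2 fold change beyond 2) follow the study. The study describes the 3 libraries of a line as separate differentiations. The intervals behind CPM values are not given, and the detection limit of 3 counts covers counting error only.

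Named genes are Hoxc8 and Hoxc9, the 12 called genes with the largest change in each direction at a mean of at least 1 CPM, the 5 most abundant called genes in each direction, up to 4 called members of each gene list in each direction (or the member with the smallest adjusted p), all Hox, PBX and MEIS genes, and 8 motor neuron genes. Some genes that meet this rule are counted in the lists but not reported here by name. Tacr1, Tlx3, Pax2, Kcnip2, Hprt, Sox10, Foxa2, Tubb3, Mki67, Malat1 and the genes under the closing observations were named after their values were seen. The comparison, its gene lists and its tests were chosen with earlier results of these data known. Alternatives were DESeq2 1.42.0, its size factors, other filters, thresholds and sets of libraries, a replicate block, and leaving out each library. On simulated counts for this comparison (20463 genes, 200 of them changed by 3 on the log2 scale), edgeR recovered 100% with 1 other call, and DESeq2 recovered 99% with 0. The changed genes were drawn from those averaging at least 1 CPM, the spread was that of the fit, and no run or library effect was put in. Recovery of scarcer genes, and calls made by a run effect, were therefore not tested.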

Additional observations from a re-analysis of the deposited data

How the results depend on the processing

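The count of 407 called genes was 397 by DESeq2 (383 shared), 407 with DESeq2 size factors (405 shared), 380 when genes needed 10 counts in 3 libraries, 407 with any gene counted, 409 with only the 6 libraries compared, 416 with the 15 day 4 libraries, and 355 to 373 leaving out 1 library, of which 336 to 354 were shared. It was 881 with a log2 threshold of 1 (476 higher, 405 lower) and 1124 by adjusted p alone (617 higher, 507 lower). By adjusted p alone the anterior Hox genes held 14 lower, and the potassium channel genes 14 higher, also 14 with the log2 threshold of 1. Leaving out 1 library gave 5 to 8 potassium channel genes higher. With a replicate block 387 genes were called in the fit of 18 libraries and 374 in the fit of 6, and H19, Kcnv2, Kcna4 and Foxd3 lost their calls in both, Igfbpl1, Wt1 and Gdf10 in the fit of 6. DESeq2 did not call Igfbpl1, Kcnv2, Kcna4 and Dkk2. The deviations of same-numbered libraries from the mean of their line correlated at 0.487, 0.204 and -0.329 across 13030 genes. Library 1 of iHoxc8 correlated best with library 1 of iHoxc9, library 2 with library 3, and library 3 with library 1. With 3 libraries in each line and library 2 of iHoxc8 standing apart, these values cannot settle whether replicate numbers pair the samples. The difference between the induced genes was 0.79 on the log2 scale without division by exon length. Of 161 tested genes chosen by the naming rule, 3 (Hoxa6, Hoxd9 and Pbx4) turned direction in some setting and 3 (Hoxc13, Hoxd13 and Hoxa10) reached or left 0, none of them called. Hoxc13 was 0.031 with the replicate block in 18 libraries, and over the fits that leave out 1 library the log2 fold changes ranged from -0.47 to 0.066 for Hoxa6, 0.00 to 2.48 for Hoxd13, -1.77 to 1.88 for Hoxd9 (also -0.35 and -0.29), -2.24 to 0.00 for Hoxa10 and -0.15 to 0.022 for Pbx4. Of 118 called genes chosen by the naming rule, 96 were called in every setting that gave a value. The cause of these shifts was not tested beyond the thresholds and libraries named. Genes under about 0.1 CPM lie at the detection limit of these depths.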

Other observations

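Some abundant called genes belong to none of the gene lists, and those named here were picked after their values were seen. Lower in iHoxc9 were Syt4, a synaptotagmin of secretory vesicles, at 110.0, 101 and 103 against 9.54, 7.95 and 9.23 CPM (log2 -3.56, SE 0.28, adjusted p = 6.94e-09 by edgeR), and Cbln1, a secreted synapse organizer, at 114, 146 and 124 against 18.8, 28.5 and 19.7 CPM (log2 -2.51, SE 0.24). Lypd1, a membrane-bound regulator of nicotinic receptors, was 91.5, 124 and 86.5 against 9, 17 and 11.5 CPM (log2 -3.003). The secreted proteins Vtn (log2 -2.73), Enpp2 (-2.41) and Ptn (-2.82) were lower as well. In iHoxc10 neurons Syt4 stood at 35.8 ± 6.95 CPM and Cbln1 at 29.9 ± 4.59 CPM, against 39.3 ± 11.2 and 158 ± 20.6 CPM in control.

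Higher in iHoxc9 were Tmem163, a zinc transporter of synaptic vesicles, at 2.60, 4.27 and 3.66 against 51.6, 58.1 and 49.1 CPM (log2 3.92, SE 0.23, adjusted p = 6.20e-11 by edgeR), and the synaptic scaffold gene Dlg2 at 1.21, 1.47 and 1.75 against 21.5, 21.4 and 17.6 CPM (log2 3.77, SE 0.22). Both were low in iHoxc10, at 3.50 ± 0.667 and 2.78 ± 0.304 CPM. Pkd2l1, a channel of the neurons that contact cerebrospinal fluid, was 5.26, 6.14 and 4.88 against 44.0, 43.6 and 42.7 CPM (log2 3.00), with 19 ± 3.66 CPM in iHoxc10. The presynaptic adhesion gene Nrxn3 (log2 3.00), the kinase gene Syk (2.85), the cholesterol transporter gene Abca1 (2.73), the matrix gene Smoc1 (2.56), the tectorin gene Tecta (3.31) and the pentraxin gene Nptx2 (2.29) were also higher.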
